A study of Mus musculus with 18 samples.

Results

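The nuclear genes for the subunits of respiratory complexes II to V were followed in RNA-seq of regulatory T cells (Tregs) with and without the chromatin remodeler CHD8. Members were the genes of the expression table with a symbol that begins with Sdh followed by a, b, c or d, with Uqcr, with Cox4 to Cox8 or with Atp5, together with Cyc1. Names with the suffix -ps, which marks pseudogenes, were left out. The rule matched 50 names, of which 2 were pseudogene names, and left 48 members of the 35865 genes listed under a single name. Complex II had 4 members, complex III 9, complex IV 18 and complex V 17.

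Tregs are CD4+ T cells that restrain other immune cells and depend on the transcription factor Foxp3. RNA was measured in 4 libraries, each of splenic YFP+ Tregs from a single mouse, 2 Chd8-/- and 2 WT. The study describes its mice as sex-matched littermates of 5 to 7 weeks of age. Chd8-/- mice carried floxed Chd8 alleles (label CHD8Flox/FloxFoxp3YFP-Cre) and a YFP/Cre fusion expressed from the Foxp3 locus, so that the deletion is limited to cells that express Foxp3. WT mice are described as Chd8+/+ with the same Foxp3 fusion, which all 4 libraries therefore share. The deposited label of the WT libraries is CHD8flox/floxFoxp3YFP-Cre/+, which names floxed alleles as well, and the grouping by the W and K of the sample titles was used. All libraries carry a poly IC injection as their treatment label. An interval of 5 to 7 weeks also spans the time in which the study describes Chd8-/- mice as ill, so that loss of CHD8 in Tregs and the state of the mouse cannot be told apart here.

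Complexes II, III and IV lie in the inner mitochondrial membrane and pass electrons from succinate through ubiquinone and cytochrome c to oxygen. Complexes III and IV pump protons as they do so, and complex V, the ATP synthase, lets the protons return and makes ATP. Complex II is built from nuclear genes throughout, whereas complexes III, IV and V also hold subunits encoded by the mitochondrial genome. Mitochondrial respiration is known to be used by Tregs at rest and during suppression.

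Values are TPM, transcript levels scaled for gene length and for the library total. The reads behind them, estimated from the smallest step of the values, numbered about 13800000 and 9900000 in the Chd8-/- libraries and 9910000 and 11000000 in the WT libraries. Among the members, 39 had at least 100 estimated reads in every library, with a range of 236 to 11114 and a median of 1292. For these members counting error alone gave a median SE of the log2 fold change of 0.041. The median SE of limma was 0.225, from the spread between libraries of each gene moderated by that of all genes tested. The spread between mice, not the depth, therefore set the precision of most members. Chd8 itself was at 14.9 and 11.4 TPM in the Chd8-/- libraries and at 24.7 and 27.6 TPM in the WT libraries. The log2 fold change was −0.95 ± 0.29 (SE, adjusted p = 0.455, limma), and both Chd8-/- values lay below both WT values. The value covers the whole gene, so that deleted and remaining exons cannot be told apart. Foxp3 was at 203 to 232 TPM in all 4 libraries. Xist was at 500 to 843 TPM and the Y-linked Ddx3y was listed at 0 in all 4 libraries. The legend of the study names mice of both sexes in each genotype, which these values do not show.

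The second Chd8-/- library stood apart in the markers of other cells. The sum of 8 myeloid markers was 33.2 and 1490.2 TPM in the Chd8-/- libraries and 145.2 and 118.1 TPM in the WT libraries. Most of each sum was Lyz2, at 20 and 1360.3 TPM against 77.1 and 60.5 TPM. Cd68 was at 7.5 and 55.6 TPM against 48 and 43.1 TPM, so that its second Chd8-/- value was near those of WT. Of these markers Csf1r, Cd68, Itgam and Lyz2 were above 0 in all libraries, with Csf1r and Itgam at 0.2 TPM in the first Chd8-/- library. In that library Cd14, Fcgr3 and S100a9 were listed at 0, as was S100a8 in both WT libraries. The sum of 6 erythroid markers was 8.7 and 1989.7 TPM against 385.2 and 351.9 TPM in WT, with Hba-a2, Hbb-bs and Hbb-bt listed at 0 in the first Chd8-/- library. The sum of 7 markers of CD8 T cells and NK cells was 94.2 and 71.1 TPM against 87.1 and 56.0 TPM. Its members differed in order, with Nkg7 at 82.1 and 15.2 TPM against 43 and 28.4 TPM. Cd8b1 was at 7.7 and 35.9 TPM against 36 and 21.7 TPM. Treg markers, 8 genes, summed to 4510.9 and 3680.4 TPM against 3938.1 and 4043.9 TPM. Proliferation markers, 7 genes, summed to 801.2 and 851.3 TPM against 628.3 and 657.5 TPM. Most of each sum was Pcna, at 570.8 and 523.6 TPM against 420.7 and 397.3 TPM. By log2 fold change 5 of the 7 were higher, beside 38.5% of all genes, and 2, Mcm5 and Ccnb1, were lower. Because the 2 Chd8-/- libraries differ in the markers of other cells, the counts of members above or below WT are also given for each Chd8-/- library on its own. Counts for other gene lists are given for both libraries together.

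Of the 48 members, 44 reached 1 TPM in 2 or more libraries and were tested as log2(TPM + 1). Cox4i2, Cox7b2 and Cox8c, isoforms of the lung, the germ line and the testis, were listed at 0 in all libraries. Cox6b2, a testis isoform, was at 0.1 and 7.9 TPM in the Chd8-/- libraries and at 0.8 and 0.9 TPM in the WT libraries, and it was not tested. Cox8b passed the filter through the WT libraries alone, and Cox6a2 was over 1 TPM in 1 Chd8-/- library and in both WT libraries.

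In the first Chd8-/- mouse most nuclear subunits lay above WT, and in the second they lay on both sides of it. The median log2 fold change of Chd8-/- against WT was 0.09 over the 44 members, with 27 members higher and 17 lower, beside a median of −0.15 over all 15240 genes tested, of which 38.5% were higher. Relative to the WT mean, the median member was at 0.29 in the first and −0.17 in the second Chd8-/- library on the log2 scale. Over all genes tested these medians were −0.04 and −0.25. In the plot of every tested member by library, the points of the first Chd8-/- library lie mostly above 0 and those of the second spread to both sides.

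**Figure D1:**
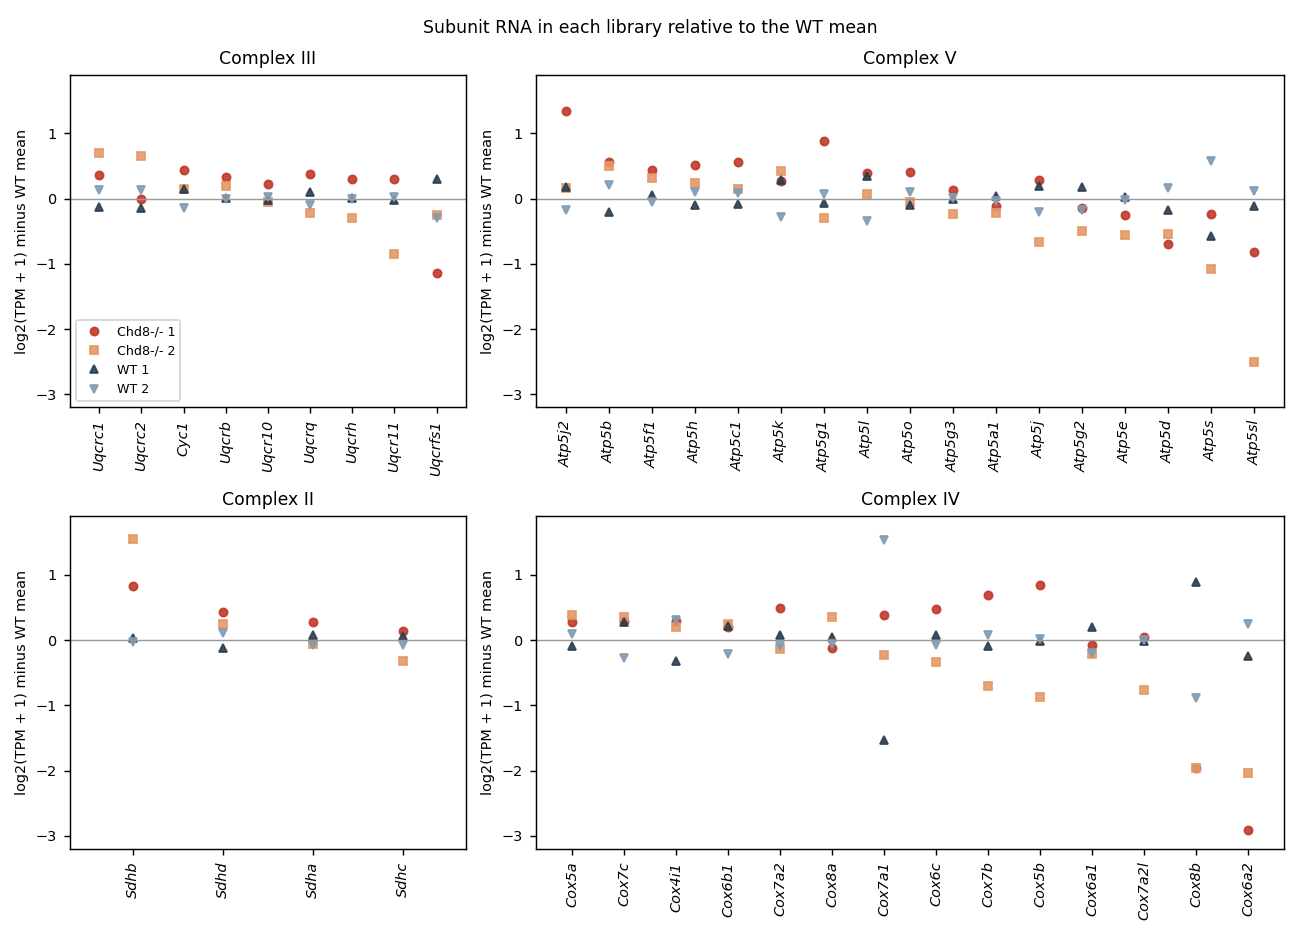
Level of each tested subunit gene in each library, as log2(TPM + 1) minus the mean of the 2 WT libraries (vertical axis), with 1 panel per complex and genes ordered by their log2 fold change. Circles and squares are Chd8-/- replicates 1 and 2, and triangles pointing up and down are WT replicates 1 and 2. Sdhb stands highest at 0.82 and 1.55 above the WT mean, and Cox6a2 lowest at −2.91 and −2.04. For Cox8b both Chd8-/- points coincide.

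In 10 of the 44 members each Chd8-/- library exceeded each WT library, against 14.8% of all genes tested. In 6 of 44 each lay below, against 27.8% of all genes. These include Cox8b, whose place the filter fixed, and with a mean TPM of at least 5, which leaves out Cox8b and Cox6a2, 4 members lay below (27.9%). With each library centred on its median gene, which moves the median of all genes from −0.15 to 0.028 and that of the members from 0.094 to 0.27, the counts were 20 above and 5 below, against 23.8% and 20.2% of all genes. The first Chd8-/- library alone was above both WT libraries for 28 members (32.5% of all genes) and below for 8 (38.7%). The second alone was above for 14 members (28.0%) and below for 22 (52.7%). The first exceeded the second in 32 of 44 members (61.3%). Adjusted p-values under 0.05 were reached by 0 members and by 0.0% of all genes in limma, and the smallest among members was 0.403. Unadjusted p-values under 0.05 were found for 1 higher member, Sdhb (3.9% of all genes), and for 2 lower members, Cox6a2 and Atp5d (6.3%). With centred libraries 9 members were higher at this level (6.36%). With 2 libraries against 2, the smallest p that exact permutation allows is 0.333, so that no gene can pass 0.05 in that test. The SE and p-values of limma rest on the spread between mice, with n = 2 for each genotype. The spread of each gene is moderated toward a trend over all genes tested, so that both draw in part on other genes.

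**Figure D2:**
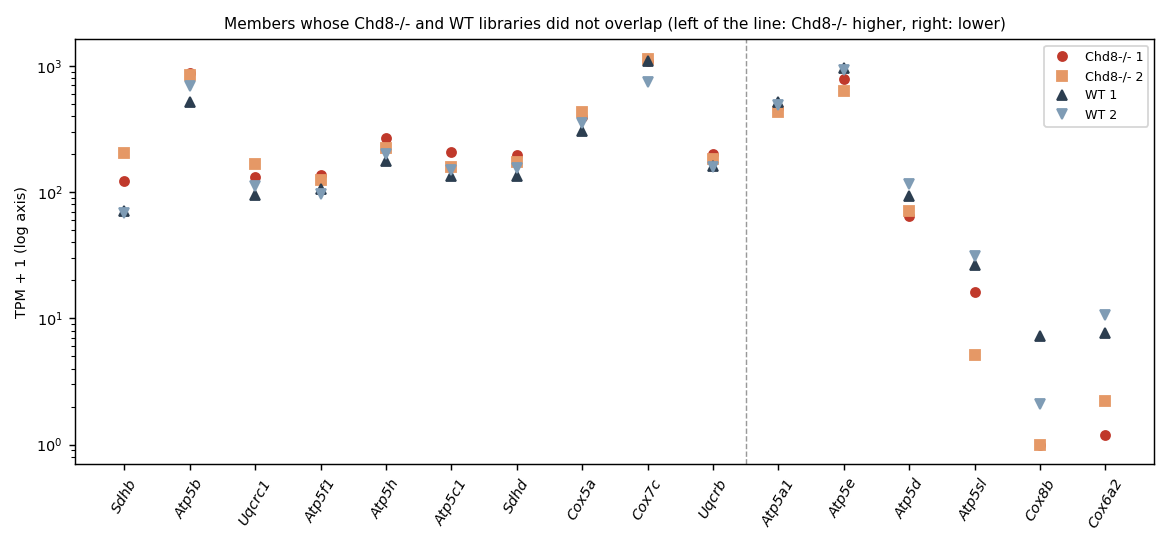
TPM + 1 (vertical log axis) of the 16 members whose Chd8-/- and WT libraries did not overlap, ordered by log2 fold change, with 1 point per library. The 10 members left of the dashed line had both Chd8-/- values above both WT values, and the 6 on the right had both below. The distance between the genotypes is widest for Sdhb among the first and for Cox6a2 among the second, and for Cox8b both Chd8-/- points are at a TPM of 0.

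Promoter sequence is shown for members of this kind, because nuclear respiratory genes are known as targets of NRF1 and of the ETS factor GABP, whose motifs were searched as GCGCA followed after any 1 base by GCGC, and as CCGGAAG. RefSeq windows of 250 bases before to 50 bases after the gene start (GRCm38.p6) were found for 37 of the 48 members, and both strands were searched. The NRF1 motif was in 10 of these (27.0%), against 5.19% of 27025 genes with a window, and the ETS motif was in 12 (32.4%), against 9.93%. At least 1 of the motifs was in 18 of the 37 (48.6%), against 14.0% of all genes. The motifs can overlap by 1 letter at most. Of the 10 members above WT in both Chd8-/- libraries 9 had a window, and 5 of these held a motif. The matches, 1 of 2 NRF1 matches in the case of Uqcrc1, are printed 5′ to 3′ on the strand of the gene, 30 bases each, with the motif in capitals on whichever strand it was found.
Sdhb, ETS, chr4:140961265-140961294, + strand: ggctcggagaaaCCGGAAGcggccttccac
Sdhd, NRF1, chr9:50603909-50603938, − strand: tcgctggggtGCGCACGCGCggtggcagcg
Sdhd, ETS, chr9:50603878-50603907, − strand: accgtctcctgcCTTCCGGttcacgcttca
Uqcrc1, NRF1, chr9:108936668-108936697, + strand: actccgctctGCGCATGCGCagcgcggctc
Atp5c1, NRF1, chr2:10080430-10080459, − strand: ctgagctcccGCGCACGCGCactgagtccc
Atp5h, NRF1, chr11:115420041-115420070, − strand: gaccccgacgGCGCAGGCGCcgcgcccgcc
Atp5h, ETS, chr11:115419940-115419969, − strand: ccaaggagagaaCTTCCGGcaactctcttc
Of the 6 members below WT in both libraries 4 had a window, and the ETS motif of Atp5e was the only match.
Atp5e, ETS, chr2:174464186-174464215, − strand: ctacggccacagCTTCCGGtagccgctcgg
Windows without these letters included those of Cox5a, Cox7c, Atp5b and Atp5d. A match describes the letters of the window and is not a measured binding site.

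Complex II oxidises succinate and is shared with the citric acid cycle. Its summed RNA was 688.3 and 660.9 TPM in the Chd8-/- libraries and 533.5 and 521.8 TPM in the WT libraries. Of complexes II to V it was the only one for which both Chd8-/- sums were above both WT sums, and without Sdhb its sums were 566.6 and 459.4 TPM against 463.7 and 454.8 TPM, which overlap. The median log2 fold change of its 4 members was 0.22.

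Sdhb, the iron-sulfur subunit (chr4:140961271-140979198 in GRCm38, + strand), was at 121.7 and 201.5 TPM in the Chd8-/- libraries and at 69.8 and 67.0 TPM in the WT libraries. Both Chd8-/- mice were well above both WT mice, and they also differed from each other by 0.72 on the log2 scale. The log2 fold change was 1.18 ± 0.30 (SE), a 2.27-fold higher level on the scale of log2(TPM + 1), with an unadjusted p of 0.0148 and an adjusted p of 0.430 in limma. Sdhd, a membrane anchor that holds heme and takes part in ubiquinone reduction, was at 194.1 and 170.8 TPM against 132.3 and 155.1 TPM in WT. The groups did not overlap, and the log2 fold change was 0.34 ± 0.19 (SE, adjusted p = 0.603, limma). Sdha, the flavoprotein that binds succinate, was at 285.2 and 225.0 TPM against 248.0 and 223.9 TPM, and Sdhc, the other anchor, at 87.3 and 63.6 TPM against 83.4 and 75.8 TPM. In both the genotypes overlapped, and for Sdhc the Chd8-/- values lay on both sides of those of WT.

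Complex III transfers electrons from ubiquinol to cytochrome c. Its 9 nuclear members summed to 2454.7 and 1947.1 TPM in the Chd8-/- libraries and to 2099.8 and 2073.8 TPM in the WT libraries, with a median log2 fold change of 0.08. The WT libraries were close together, and the Chd8-/- libraries lay on both sides of them.

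The core proteins had the largest positive differences in complex III. Uqcrc1 was at 131.1 and 165.8 TPM in the Chd8-/- libraries and at 93.1 and 111.5 TPM in the WT libraries. The log2 fold change was 0.53 ± 0.22 (SE, adjusted p = 0.527, limma), without overlap of the genotypes. Uqcrc2 was at 192.9 and 307.1 TPM against 177.0 and 214.5 TPM. Its first Chd8-/- value lay between those of WT, so that the difference rests on the second Chd8-/- mouse. Cyc1, the heme-bearing cytochrome c1, was at 136.9 and 111.3 TPM against 111.4 and 90.5 TPM, an overlap by a narrow margin. Uqcrb, which lies near the site of ubiquinone, was at 200.6 and 181.6 TPM against 160.4 and 157.8 TPM, with a log2 fold change of 0.26 ± 0.17 (SE, adjusted p = 0.646, limma).

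The lowest members of complex III overlapped between the genotypes. Uqcrfs1, the Rieske iron-sulfur protein, was at 46.7 and 87.8 TPM in the Chd8-/- libraries and at 129.5 and 84.6 TPM in the WT libraries. The low value came from the first Chd8-/- mouse, in which most subunits were high. Uqcr11, a small subunit, was at 393.8 and 177.7 TPM against 316.0 and 324.3 TPM, lying on both sides of WT. Uqcrh, the hinge protein next to cytochrome c1 and the most abundant member of the complex, was at 1144.8 and 756.7 TPM against 938.6 and 920.8 TPM and likewise lay on both sides. The small subunits Uqcr10, with 139.4 and 114.1 against 117.2 and 120.6 TPM, and Uqcrq, with 68.5 and 45.0 against 56.6 and 49.2 TPM, had the same order of the Chd8-/- mice, the first above and the second below both WT mice.

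Complex IV, cytochrome c oxidase, reduces oxygen to water around a catalytic core of 3 mitochondrial subunits, and its nuclear members surround that core. The 18 nuclear members summed to 5688.9 and 4807.6 TPM in the Chd8-/- libraries and to 5085.9 and 4492.8 TPM in the WT libraries. The median log2 fold change of the 14 tested was 0.08, and the sums of the genotypes overlapped.

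Among the general subunits, Cox5a was at 396.0 and 430.1 TPM in the Chd8-/- libraries and at 306.7 and 351.1 TPM in the WT libraries. The log2 fold change was 0.33 ± 0.17 (SE, adjusted p = 0.580, limma). Cox7c, the most abundant nuclear member of the complex, was at 1092.4 and 1138.9 TPM against 1085.9 and 738.3 TPM, with a log2 fold change of 0.32 ± 0.23 (SE, adjusted p = 0.684, limma) that was 0.039 without the second WT library. In Cox7c the first WT value was close to the lower Chd8-/- value, and the second WT library alone was low. Cox4i1, the general form of subunit 4, was at 409.1 and 386.6 TPM against 269.6 and 417.0 TPM and overlapped, since the second WT library was the highest of all. Cox6b1 was at 645.1 and 663.6 TPM against 649.6 and 481.6 TPM, and Cox8a at 361.5 and 501.6 TPM against 408.8 and 379.9 TPM, both without separation of the genotypes.

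Several subunits of complex IV were high in the first and low in the second Chd8-/- mouse. Cox5b, the partner of Cox5a, was at 445.0 and 134.7 TPM against 246.5 and 250.6 TPM in WT, a gap of 1.72 between the Chd8-/- libraries on the log2 scale and the widest of all members. Cox7b was at 363.1 and 137.7 TPM against 211.7 and 238.4 TPM. Cox6c, at 634.1 and 363.2 TPM against 480.3 and 433.8 TPM, followed the same order. On the log2 scale the mean of Chd8-/- for Cox5b and Cox7b was near that of WT, although neither mouse was. Over all tested members the Chd8-/- libraries were more than 0.5 apart on the log2 scale for 18 of 44 (51.3% of all genes) and the WT libraries for 8 of 44 (34.4%). For the members the SD of the 2 libraries of a genotype had a median of 0.273 (Chd8-/-) and 0.141 (WT), beside 0.368 and 0.228 for all genes.

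Complex IV has alternative isoforms that are known for muscle, lung or testis, and the Tregs used the general forms. Cox6a1 was at 750.7 and 685.0 TPM in the Chd8-/- libraries and at 908.3 and 690.3 TPM in the WT libraries and made up 98.6% or more of the Cox6a RNA. The muscle form Cox6a2 (chr7:128205435-128206366, − strand) was at 0.2 and 1.2 TPM against 6.6 and 9.7 TPM, with a log2 fold change of −2.47 ± 0.51 (SE, unadjusted p = 0.00695, adjusted p = 0.403, limma). These values rest on an estimated 0.889 and 4.17 reads against 21.2 and 33.1 reads. Cox8b, also of muscle, was listed at 0 in both Chd8-/- libraries and at 6.2 and 1.1 TPM in WT, an estimated 10.98 and 2.06 reads. Both forms were low in all libraries beside their partners, Cox8a making up 98.5% or more of the Cox8 RNA. Of 6 muscle and germ cell markers 1, Acta1, reached the filter, and their sum was 6.1 and 4.3 TPM against 5.2 and 4.7 TPM. Myh6 was listed at 0 in all libraries but the first of Chd8-/-.

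The Cox7a family was split between 2 genes. Cox7a2, the general form, was at 278.1 and 178.9 TPM in the Chd8-/- libraries and at 209.3 and 185.9 TPM in the WT libraries. Cox7a2l, known for joining complexes III and IV in supercomplexes, was at 306.6 and 174.0 TPM against 294.5 and 297.7 TPM. Cox7a2 made up 47.0 and 50.1% of the family in Chd8-/- and 41.5 and 37.2% in WT, and Cox7a2l 51.8 and 48.7% against 58.3 and 59.5%. The shares of these genes did not overlap between the genotypes, while the level of each gene did. Together the 2 genes make up nearly all of the family, so their shares mirror each other. The separation of the shares was not tested. Cox7a1, the muscle form, was at 6.9 and 4.2 TPM against 1.1 and 16.5 TPM, with the WT values on both sides of the Chd8-/- values.

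**Figure D3:**
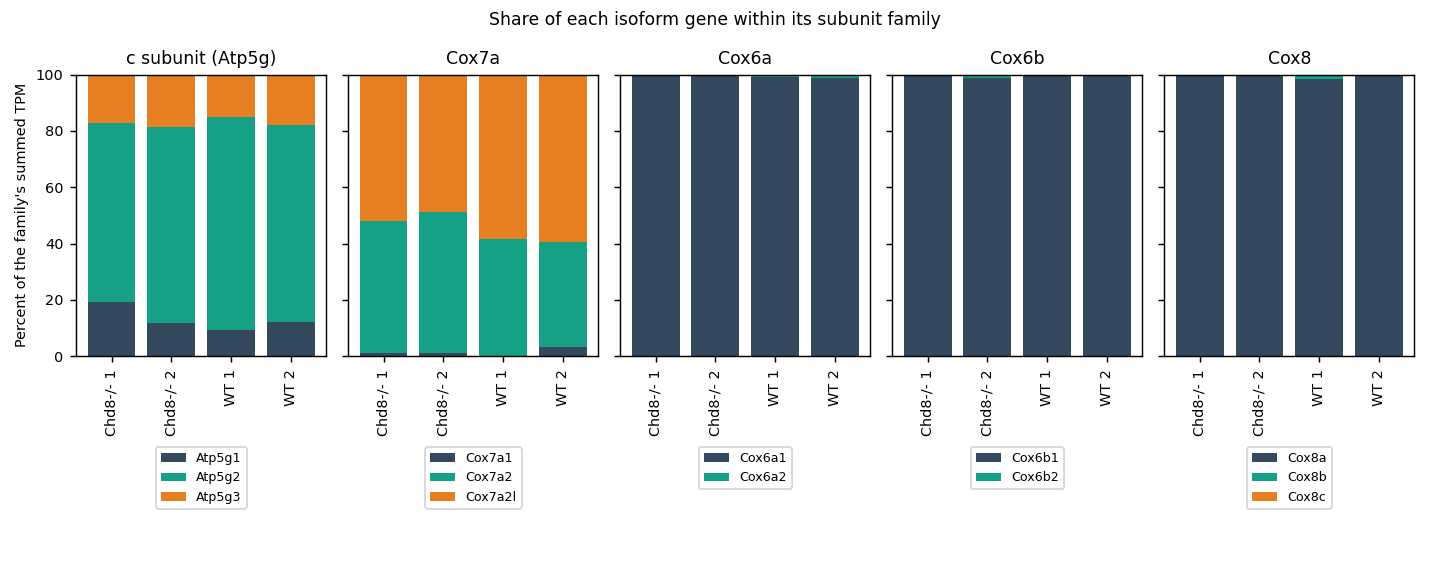
Share of each isoform gene in the summed TPM of its subunit family (vertical axis, percent) in each library, for the c subunit of complex V and 4 families of complex IV. Bars are single libraries and have no error bar. Atp5g1 made up 19.1% of the c subunit RNA in the first Chd8-/- library and 9.45 to 12.1% in the others, and Cox7a2 made up a larger share in both Chd8-/- than in both WT libraries.

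Complex V consists of a catalytic head, a stalk that rotates or holds, and a ring in the membrane. Its 17 members summed to 6142.7 and 4806.5 TPM in the Chd8-/- libraries and to 5229.9 and 4924.7 TPM in the WT libraries, again with the Chd8-/- mice on both sides of WT. The median log2 fold change was 0.18. Leaving out the second WT library turned it to −0.041.

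The subunits of the catalytic head did not share a direction. Atp5b, the catalytic beta subunit, was at 876.7 and 842.3 TPM in the Chd8-/- libraries and at 513.8 and 689.5 TPM in the WT libraries. Both Chd8-/- mice were alike and above both WT mice, with a log2 fold change of 0.53 ± 0.20 (SE, adjusted p = 0.496, limma). Atp5a1, the alpha subunit that alternates with beta, was at 465.4 and 433.2 TPM against 517.5 and 488.6 TPM. The log2 fold change was −0.16 ± 0.15 (SE, adjusted p = 0.744, limma) and changed its sign, to 0.015, with libraries centred on their medians. Atp5c1, the gamma subunit at the axis of the rotor, was at 206.7 and 156.0 TPM against 132.5 and 148.6 TPM, with a log2 fold change of 0.35 ± 0.22 (SE, adjusted p = 0.639, limma) that was 0.15 without the first Chd8-/- library. The other subunits of the central stalk lay the other way. Atp5d, the delta subunit (chr10:80138698-80145828, + strand), was at 63.5 and 70.3 TPM against 91.6 and 116.0 TPM, with a log2 fold change of −0.62 ± 0.22 (SE, unadjusted p = 0.0445, adjusted p = 0.481, limma). Atp5e, the epsilon subunit and the member of the complex with the highest mean over the 4 libraries, although below Atp5b in both Chd8-/- libraries, was at 791.6 and 636.2 TPM against 957.7 and 920.7 TPM, with a log2 fold change of −0.40 ± 0.18 (SE, adjusted p = 0.537, limma).

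In the peripheral stalk, which keeps the head from turning, the subunits b and d were above WT in both Chd8-/- mice. Atp5f1, subunit b, was at 135.7 and 124.7 TPM in the Chd8-/- libraries and at 104.0 and 95.8 TPM in the WT libraries (log2 fold change 0.38 ± 0.18, SE, adjusted p = 0.562, limma). Atp5h, subunit d, was at 265.4 and 220.8 TPM against 174.7 and 198.8 TPM (log2 fold change 0.38 ± 0.19, SE, adjusted p = 0.582, limma). Atp5o, the protein that ties the stalk to the head, was at 542.7 and 393.8 TPM against 381.2 and 437.9 TPM, and Atp5j, coupling factor 6, at 67.6 and 34.6 TPM against 63.7 and 48.1 TPM. Both of these overlapped with WT, and in both the first Chd8-/- mouse was the highest library.

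The c subunit forms the proton-carrying ring and is encoded by 3 genes whose mature proteins are identical. Atp5g2 was the main source of its RNA, with 669.3 and 522.5 TPM in the Chd8-/- libraries and 829.8 and 655.8 TPM in the WT libraries, or 63.6 to 75.5% of the family. Atp5g3 was at 182.6 and 141.2 TPM against 165.2 and 166.9 TPM. Atp5g1 was at 200.7 and 88.2 TPM against 103.8 and 113.7 TPM, high in the first Chd8-/- library and lowest in the second. Summed over the 3 genes the RNA was 1052.6 and 751.9 TPM against 1098.8 and 936.4 TPM, with overlap.

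The membrane subunits f, e and g were variable. Atp5j2, subunit f, had the largest positive difference of means in the complex, with 867.6 and 385.5 TPM in the Chd8-/- libraries and 387.9 and 304.0 TPM in the WT libraries. The second Chd8-/- value fell between the WT values, so that the difference came from 1 mouse. Atp5k, subunit e, was at 396.7 and 439.2 TPM against 398.6 and 270.0 TPM, and Atp5l, subunit g, at 392.8 and 313.0 TPM against 380.7 and 235.0 TPM.

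The gene named Atp5sl, now called Dmac2 and known as an assembly factor of complex I, had the lowest fold change of complex V. It was at 15.3 and 4.1 TPM in the Chd8-/- libraries and at 25.5 and 30.3 TPM in the WT libraries, with a log2 fold change of −1.66 ± 0.64 (SE, adjusted p = 0.498, limma) that was −0.82 without the second Chd8-/- library. The Chd8-/- mice were both below WT and were 1.68 apart on the log2 scale. Atp5s, now Dmac2l, was at 2.4 and 0.9 TPM against 1.7 and 5.0 TPM. Atp5sl is taken by its name and is not a structural subunit of the ATP synthase.

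The mitochondrial partners of complexes III, IV and V had the opposite order in the Chd8-/- mice, as did the mitochondrial ND genes, which belong to complex I. The 13 protein-coding genes of the mitochondrial genome summed to 85432 and 127132 TPM in the Chd8-/- libraries and to 118250 and 112669 TPM in the WT libraries, or 8.54 and 12.7% of the library against 11.8 and 11.3%. Each of the 13 was lowest in the first and highest in the second Chd8-/- library, so that 0 of 13 were above or below WT in both (14.8% and 27.8% of all genes). Their median log2 fold change was −0.16, from −0.077 for ND1 to −0.27 for ND2. CYTB of complex III was at 8406.6 and 12198 TPM against 10956 and 10487 TPM. COX1, which carries the oxygen-reducing site of complex IV, was at 17253 and 24489 TPM against 22161 and 21935 TPM. ATP6, the proton channel of complex V, was at 6594.7 and 9987.9 TPM against 9527.6 and 8632.5 TPM. ATP8 and ATP6 overlap on the genome, as do ND4L and ND4, and their values share reads or cannot be told apart.

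**Figure D4:**
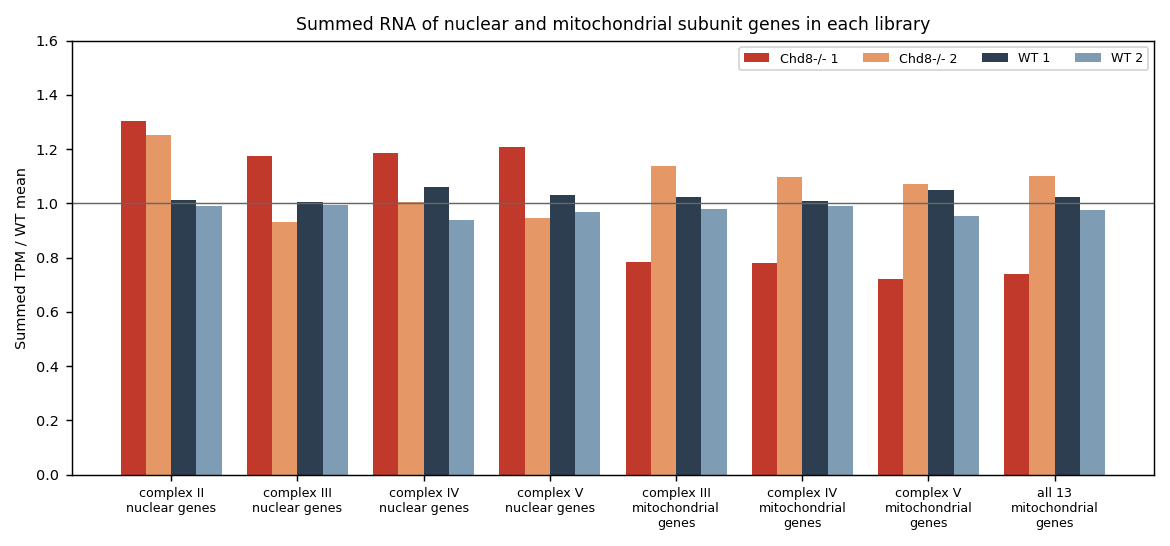
Summed TPM of the subunit genes of each complex in each library, divided by the mean of the 2 WT libraries (vertical axis, linear, from 0), for nuclear and for mitochondrial genes. The last group holds all 13 mitochondrial genes, those of complex I included. Bars are single libraries and have no error bar. In the first Chd8-/- library the nuclear sums are at 1.18 to 1.30 and the mitochondrial sums at 0.721 to 0.784 of WT, and in the second the mitochondrial sums are at 1.07 to 1.14.

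RNA of the 13 mitochondrial genes exceeded the nuclear RNA of the 48 members by a factor of 5.71 and 10.4 in the Chd8-/- libraries. In the WT libraries the factor was 9.13 and 9.38. The 13 genes include those of complex I and the 48 members do not, so that the factor does not compare the same complexes. The WT mice were alike, whereas the Chd8-/- mice were below and above them. When the 13 mitochondrial genes were removed and the libraries rescaled, the median of the members was 0.088 and the counts were 11 above and 7 below WT, against 14.6% and 29.9% of all genes. Each count thus moved by 1 member. The summed myeloid and the summed erythroid markers given above were lowest in the first and highest in the second Chd8-/- library, the order of the mitochondrial genes. Not every marker had this order. Alas2 was at 8 and 7.5 TPM in the Chd8-/- libraries against 15 and 21.5 TPM in WT, and Cd14 was highest in the first WT library at 6.9 TPM. The part of these markers in the differences was not tested. In bulk RNA fewer cells of a type and less RNA per cell cannot be told apart.

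The 36 nuclear subunits of complex I, which feeds electrons from NADH into the same chain, had a median log2 fold change of 0.24, with 0.45 in the first and 0.04 in the second Chd8-/- library relative to WT. Both Chd8-/- libraries were above WT for 12 and below for 2 of them (14.8% and 27.8% of all genes), and the summed RNA was likewise higher in both, with 5648.3 and 4464.9 TPM against 4363.9 and 4243.5 TPM. Unadjusted p-values under 0.05 were found for 6 higher and 1 lower gene (3.9% and 6.3%). Ndufa12 was highest by fold change, with 266.5 and 215.6 TPM in the Chd8-/- libraries and 150.3 and 102.0 TPM in the WT libraries (log2 fold change 0.95). Ndufa5 was lowest, with 57.1 and 8.9 TPM against 82.7 and 49.4 TPM. Of complexes I to V, complexes I and II had a median above the WT mean in both Chd8-/- libraries, which for complex II was at 0.35 and 0.093.

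Genes that assemble these complexes were mixed. The counts in this paragraph stand beside shares of 14.8% above and 27.8% below WT over all genes tested. Of 4 assembly genes of complex II, 2 were above and 1 below WT in both Chd8-/- libraries, with a median of 0.16. Sdhaf1, needed for the iron-sulfur clusters of Sdhb, was at 121.7 and 69.5 TPM against 57.7 and 58.8 TPM, and Sdhaf3 was at 23.0 TPM and listed at 0 against 28.1 and 35.3 TPM. Of 6 for complex III, 1 was above and 2 below, with a median of −0.43. Uqcc2 was at 22.5 and 25.4 TPM against 13.6 and 13 TPM, and Lyrm7 at 1.2 and 0.2 TPM against 1.8 and 2.7 TPM. Of 26 for complex IV, among which Ndufa4 is now counted as a subunit, 5 were above and 6 below, with a median of −0.08. Coa3 had the largest positive value, with 131.1 and 302.3 TPM against 51.5 and 122.6 TPM, and Cox14, its partner in the synthesis of COX1, the lowest, with 138.4 and 102.9 TPM against 193.3 and 248.2 TPM. Of 6 tested genes listed for assembly or inhibition of complex V, 1, Usmg5, was above and 1, Atpaf1, below, with a median of 0.20. Usmg5 was at 597.8 and 400.9 TPM against 328.3 and 388.4 TPM. Atpaf2, which assembles the alpha subunit, was at 4.5 and 13.1 TPM against 1.6 and 6.5 TPM. Atpaf1, which assembles the beta subunit, was at 22.6 and 37.6 TPM against 61.4 and 61.6 TPM, while Atp5b itself was above WT. Atpif1, the inhibitor of ATP hydrolysis, was at 124.0 and 154.0 TPM against 135.0 and 111.4 TPM.

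**Figure D5:**
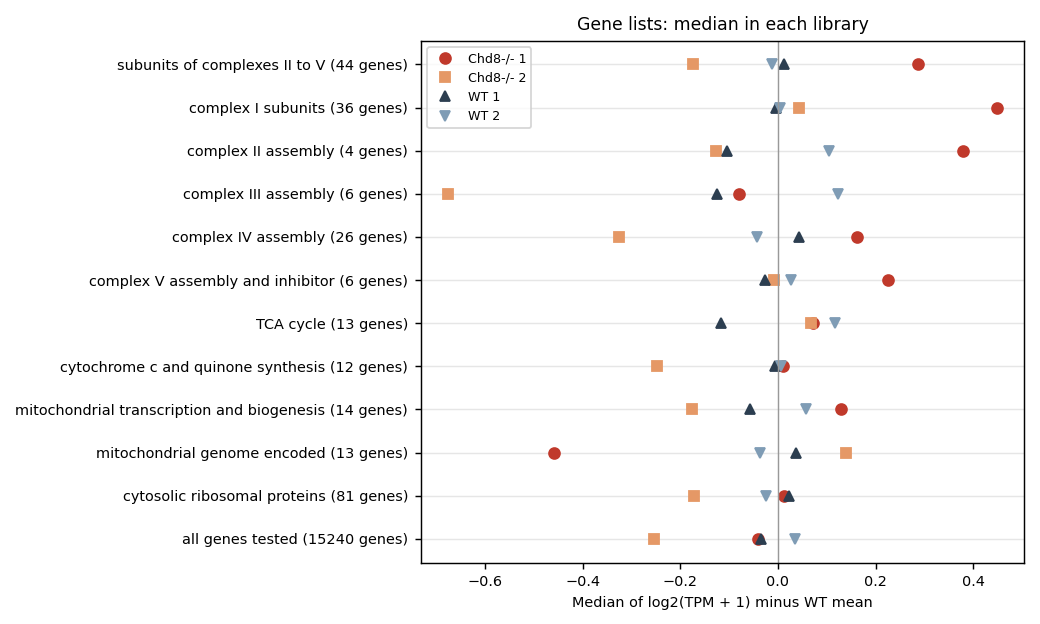
Median over the tested genes of each list of log2(TPM + 1) minus the WT mean (horizontal axis), with 1 point per library. The first Chd8-/- library is at 0.29 for the subunits of complexes II to V and at −0.46 for the mitochondrial genome, and the second is at −0.17 and 0.14.

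The substrates and regulators of the chain did not follow a common direction. Cycs, the cytochrome c that links complexes III and IV, was at 64.0 and 65.0 TPM in the Chd8-/- libraries and at 45.1 and 53.6 TPM in the WT libraries. Of the 12 tested genes of cytochrome c and quinone synthesis, 3 were above and 3 below WT in both Chd8-/- libraries (14.8% and 27.8% of all genes). Their median was −0.20. Coq7 was highest by fold change, with 8.3 and 14.9 TPM against 4.5 and 2.4 TPM, and Coq6 lowest, with 3.6 and 0.6 TPM against 6.9 and 5.3 TPM. Of 13 citric acid cycle genes other than those of complex II, 2 were above and 1 below (14.8% and 27.8% of all genes), with a median of −0.04. Mdh2, malate dehydrogenase, was at 459.9 and 510.6 TPM against 328.6 and 362.7 TPM, and Sucla2, a succinyl-CoA ligase subunit, at 23.6 and 12.7 TPM against 24.7 and 26.8 TPM.

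Of 14 tested genes of mitochondrial transcription and biogenesis, 6 were above and 2 below WT in both Chd8-/- libraries (14.8% and 27.8% of all genes). Their median was 0.01. Esrra, a nuclear receptor of respiratory genes, was highest with 9.7 and 9.1 TPM against 5.4 and 6.5 TPM, and Tfb1m lowest with 6.9 and 3.8 TPM against 16.5 and 5.8 TPM. Tfam, which packages and transcribes mitochondrial DNA, was at 45.9 and 32.9 TPM against 32.5 and 30 TPM. Nrf1, whose motif is shown above, was at 10.8 and 6.3 TPM against 12.4 and 12.2 TPM. The coactivator Ppargc1b was at 4.6 and 7.0 TPM against 12.5 and 9.3 TPM, and Ppargc1a was listed at 0 in all libraries. Of 6 tested mitochondrial carriers and porins 3 were above and 2 below (14.8% and 27.8% of all genes). Their median was −0.02, from 0.29 for Vdac2 to −0.76 for Vdac3. Among uncoupling proteins, Ucp2 was at 1042.3 and 1320.0 TPM against 1178.8 and 1169.2 TPM, and Ucp3 at 2.8 and 3.2 TPM against 0.3 and 0.7 TPM. The 81 tested cytosolic ribosomal protein genes had a median of −0.08, from 0.55 for Rps27l to −0.77 for Rpl22l1. Of these, 13 were above and 25 below WT in both Chd8-/- libraries (14.8% and 27.8% of all genes). No gene of these lists had an adjusted p-value under 0.05 in limma.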

How the data were processed

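RNA-seq reads of 4 mice were trimmed by the authors, aligned to mm10 with STAR 2.6.1e, stripped of duplicates, counted on RefSeq genes with featureCounts 1.6.2 and deposited as TPM rounded to 0.1, with 1 column per mouse. Removal of duplicates can lower short, abundant transcripts such as those of many subunits, and reads of processed pseudogenes may be shared with their parent genes. The table lists 35869 names, from which 4 entries whose name occurs again were dropped. Genes with at least 1 TPM in 2 or more libraries were compared as log2(TPM + 1) in limma (version 3.58.1, R version 4.3.3) with a mean-variance trend. Tests were two-sided, p-values were adjusted over 15240 genes by the method of Benjamini and Hochberg, and the fit was checked on simulated data. Fold changes are on that scale and understate those of low genes. The reads behind a value were estimated from TPM times exon length (GRCm38), which for genes under 200 nt is a whole multiple of a step per library. Of the values checked, 98.2 to 99.6% were whole within 0.1 read. Intervals for counting error cover counting alone. Fold changes are printed for members whose genotypes did not overlap, with the exception of Cox8b, whose Chd8-/- libraries are at 0.

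Members were named in full for complex II, by the 3 highest and 3 lowest fold changes and 2 highest levels in complexes III, IV and V, as isoforms, or by the 5 smallest p-values, and the others were added so that each is accounted for. A list of B cell markers is not reported here. From the lists of the respiratory chain, its assembly and its regulators the gene with the largest difference in each direction is named. Marker lists are given by their sums, with some single markers named. The members and the lists were chosen with earlier results of these data known. Alternatives were other pseudocounts (0.1 and 5 TPM), other filters (a mean TPM of 5 or more, or no filter), a replicate block, centring of libraries, a fit lacking the mean-variance trend, quantile normalization, and each library left out. Rescaling without mitochondrial genes was added after the data were seen. Promoter windows are from RefSeq (GRCm38.p6), and 3 members were matched by newer symbols. The ATAC-seq and CHIP-seq peak tables, in mm39, were not analysed here, because a gene annotation of that build was not used. Whether the numbers in the titles pair the mice is not known. Over 15240 genes the deviations of same-numbered libraries had a correlation of −0.01, which cannot show whether the mice were paired. Tables and figures were made with Python 3.11.15, numpy 2.4.6, pandas 2.3.3 and matplotlib 3.10.9.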

Additional observations from a re-analysis of the deposited data

How the results depend on the processing

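Leaving out 1 library decided most summaries of the members. The median log2 fold change lay between −0.17 and 0.29 for all members, 0.09 and 0.35 for complex II, −0.059 and 0.30 for complex III, −0.22 and 0.28 for complex IV and −0.21 and 0.28 for complex V. The lower end came without Chd8-/- replicate 1 and the upper end without Chd8-/- replicate 2 in each set. For complex V leaving out WT replicate 2 also turned the sign, to −0.041. Counts of members above WT lay between 14 and 28 (22.0 to 32.5% of all genes) and of those below between 8 and 22 (38.0 to 52.7%). Unadjusted p-values under 0.05 were found for 0 to 5 higher members (1.44 to 6.03% of all genes) and 1 to 7 lower members (2.18 to 14.8%). The 28 and the 5 came without Chd8-/- replicate 2 (32.5% and 3.98%), and the 22 and the 7 without replicate 1 (52.7% and 14.8%). Fewer libraries leave fewer chances of overlap, and a genotype left with 1 library is assumed to vary like the other. With libraries centred on their median, the medians were 0.27 for all members and 0.40, 0.26, 0.25 and 0.36 for complexes II to V, 20 members were above WT (23.8% of all genes), 9 higher (6.36%) and 1 lower (4.57%) had an unadjusted p under 0.05, and Atp5a1 changed sign to 0.015. Quantile normalization gave a median of 0.057 for all members and 0.0014 for complex IV. With a mean TPM of at least 5, 1 lower member had an unadjusted p under 0.05 (5.96%), fewer low genes being tested. Without mitochondrial genes there were 2 higher (3.85%) and 5 lower (6.87%). A replicate block cannot move the median of all members (0.09) or the counts of 10 above and 6 below WT, because the design is balanced. With the block 1 higher and 2 lower members had an unadjusted p under 0.05 in limma and 0 an adjusted p under 0.05, and it changed no call. Of 206 log2 fold changes of the 16 non-overlapping members under alternatives, 205 kept their direction, although that of 12 members moved by more than 1.5 times under at least 1 alternative, and 0 passed an adjusted p of 0.05 (smallest over members and alternatives 0.204, limma). Because the genotypes of these 16 members do not overlap, leaving out 1 library, another pseudocount or filter, a block or no trend could not turn their direction. It could change only with quantile normalization, centring or rescaling without mitochondrial genes, so that most of the 205 were fixed in advance. Cox6a2 was at −3.70 and −1.20 with a pseudocount of 0.1 and 5 TPM. The alternatives planned for ATAC-seq and CHIP-seq peaks at gene starts were not run. The causes of these shifts were not tested. Depth limits Cox6a2, Cox6b2, Cox7a1, Cox8b and Atp5s, which had few reads.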
